A study of Mus musculus with 6 samples.

Results

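The genes described are the cytokines and receptors of the interleukin-6 (IL-6) family in the mouse heart. They were taken by symbol from the table of read counts and comprised 6 receptor chains, Il6st, Il6ra, Osmr, Lifr, Il11ra1 and Cntfr, and 3 ligands, Il6, Lif and Clcf1. All 9 were found among the 46095 genes of the table, and the 6 receptor chains held enough reads to be tested, among 14484 genes tested in all. RNA was sequenced from 3 hearts labelled STAT3cKO, whose mice lack STAT3 in cardiomyocytes by targeted deletion, and from 3 hearts labelled wild type. The replicate numbers in the titles were 3, 6 and 91 for STAT3cKO and 1, 3 and 4 for wild type. Genotype was the only factor given. No source used here names the driver of the deletion, the age or the strain. None states that each library came from a separate animal, so the spread behind each p-value is that of these 6 libraries and could be technical.

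Most cytokines of the IL-6 family signal through gp130, the protein encoded by Il6st. Beside gp130, a ligand binds a receptor of its own, a gp130-like chain or both. Receptors of the first kind include the IL-6 receptor alpha chain (Il6ra), the IL-11 receptor alpha chain (Il11ra1) and the ciliary neurotrophic factor receptor alpha chain (Cntfr). The gp130-like chains here are the leukemia inhibitory factor (LIF) receptor (Lifr) and the oncostatin M receptor (Osmr). The assembled receptor activates JAK kinases, which phosphorylate STAT3, and in heart muscle this route is known for its part in cell growth and survival under stress.

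Of the 6 tested receptor genes, 1 rose, 2 fell and 3 did not pass at an adjusted p of 0.05 (edgeR's quasi-likelihood test, Benjamini-Hochberg over all genes tested). Among all genes tested, 13.2% were called higher and 12.6% lower in STAT3cKO hearts, 25.8% in all, so calls were common in this comparison. Il11ra1 was higher by a log2 fold change of 0.61 ± 0.10 (SE). Il6ra was lower, with a log2 fold change of -1.03 ± 0.24 (SE), and so was Lifr, with -0.31 ± 0.09 (SE). The reads of the 3 ligands were too few for a test.

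Promoter sequence is shown for Il6st because every member acts through gp130, and because its promoter and that of Osmr share a run of 9 letters. Sequences are from RefSeq, build GRCm38.p6, and promoter windows reach from 250 bases before to 50 bases after each listed start. The Il6st bases before the start lie on the plus strand at chr13:112463820-112464069 and read as follows, with capitals for the 9 letters that match TTNNNNNAA, a loose form of the STAT recognition pattern:
Il6st: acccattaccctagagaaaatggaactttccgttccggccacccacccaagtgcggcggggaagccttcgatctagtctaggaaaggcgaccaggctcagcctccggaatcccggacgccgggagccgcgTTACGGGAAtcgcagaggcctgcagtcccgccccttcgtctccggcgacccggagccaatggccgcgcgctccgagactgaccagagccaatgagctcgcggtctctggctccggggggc

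The same 9 letters, on either strand, were found in the Osmr promoter and in that of Mcl1, a survival gene taken here from the list of STAT3 target genes. Each is shown with 10 bases on either side, from 5′ to 3′ on the strand of its gene, with the 9 letters in capitals:
Il6st, chr13:112463940-112463968, plus strand: gggagccgcgTTACGGGAAtcgcagaggc
Osmr, chr15:6874330-6874358, minus strand: ccccggcgctTTCCCGTAActcccgcccc
Mcl1, chr3:95658707-95658735, plus strand: ctttccccttTTACGGGAAgtcctcgcct
The letters begin 120 bases before the listed start of Il6st, 35 before that of Osmr and 4 before that of Mcl1, and Osmr holds the reverse complement. The start listed for Osmr lies inside the gene, whose span in RefSeq reaches to base 6874968 and is read on the minus strand. All 250 bases before that listed start also fall in GENCODE exons of Osmr. Its letters are thus upstream of the listed start only, and lie inside the gene. Of 32851 promoter windows in the table, 37 (0.113%) held TTACGGGAA or TTCCCGTAA. The match was noticed by reading the member promoters, so no test was made. The loose pattern TTNNNNNAA, which reads as its own class on both strands, stood in 59.0% of all windows and in 10 of the 15 windows listed for 8 of the members. The strict pattern TTCNNNGAA, which is contained in the loose one, stood in 8.30% of all windows and in 0 of those 15. A match is a description of letters and does not show that a factor binds. None of the 3 genes shown passed the test (the other genes whose windows hold the letters were not looked up): the log2 fold change was -0.21 for Il6st, -0.15 for Osmr and 0.02 for Mcl1.

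Library totals ran from 15416877 to 17867944 counts in STAT3cKO hearts and from 16168682 to 18264052 in wild-type hearts. Stat3, the deleted gene, stood at 52.9, 63.7 and 59.6 CPM (reads of a gene scaled to a common library size, with TMM factors) in STAT3cKO replicates 3, 6 and 91, against 99.7, 85.8 and 97.5 CPM in wild type replicates 1, 3 and 4. The groups did not overlap, and Stat3 fell by 0.68 ± 0.10 on the log2 scale (SE), with an edgeR adjusted p of 0.000677. With an offset for transcript length and GC content its log2 fold change was -0.40, which still passed (edgeR adjusted p = 0.0116). The cardiomyocyte myosin Myh6, the marker checked for the labelled tissue, lay between 13055 and 18074 CPM in STAT3cKO hearts and between 16243 and 18391 CPM in wild-type hearts. Every library held reads of the Y-linked gene Ddx3y, 1091 to 1375 in STAT3cKO and 1514 to 1934 in wild type, and few of the female-expressed Xist, 16 to 24 in STAT3cKO and 7 to 38 in wild type. Other marker lists differed too: cardiomyocyte markers (3 of 8 higher, 1 lower) summed to 52268 to 62539 CPM in STAT3cKO and 45378 to 50317 CPM in wild type. The higher ones include Myl2 and Tnni3, with short transcripts of 889 and 912 nt. The marker called lower, named after its value was seen, was Ryr2 (log2 fold change -0.65, edgeR adjusted p = 0.00603), with a transcript of 16814 nt. Myh6 did not pass (-0.08), so the list did not move as a whole. The same offset moved Myl2 from 0.80 to 0.46 and Tnni3 from 0.62 to 0.26 on the log2 scale. Myl2 still passed with the offset, and Tnni3 did not (edgeR adjusted p = 0.105). Schwann and mesothelial markers (3 of 7 tested lower) summed to 16.2 to 26.4 CPM in STAT3cKO and 38.5 to 39.8 CPM in wild type. Neutrophil markers (1 of 2 tested higher) summed to 5.12 to 10.8 CPM in STAT3cKO and 0.768 to 4.48 CPM in wild type.

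**Figure D1:**
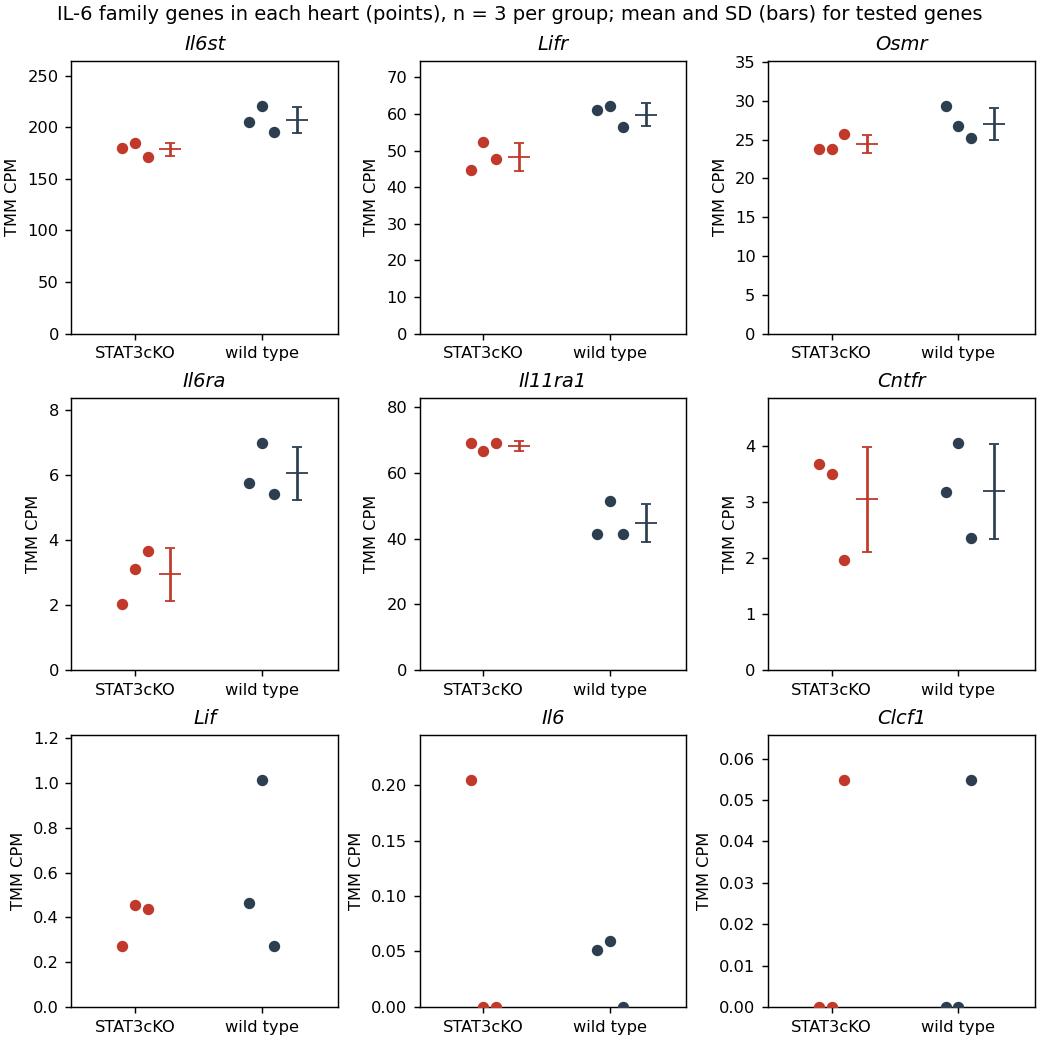
TMM-scaled CPM of the 9 members in each heart, one panel per gene, with 3 points per group and the mean and SD beside the points for the 6 tested genes. Il11ra1 is higher in all STAT3cKO hearts, Il6ra, Lifr and Il6st are lower in all of them, and the groups overlap for Lif, Il6 and Clcf1; each panel has its own axis, starting at 0.

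Il6st (chromosome 13, 112464070 to 112506860), the chain shared by most of the family, was the most abundant receptor gene by read count. It stood at 180, 184 and 172 CPM in STAT3cKO replicates 3, 6 and 91, against 205, 220.2 and 195 CPM in wild type replicates 1, 3 and 4. All STAT3cKO hearts lay below all wild-type hearts, by a small margin. The mean was 179 ± 6.51 CPM in STAT3cKO and 207 ± 12.5 CPM in wild type (SD, n = 3 each), and the log2 fold change of -0.21 ± 0.09 (SE) did not pass (edgeR adjusted p = 0.0983). With library size as the only scaling it passed (log2 fold change -0.33, edgeR adjusted p = 0.0197), and with an offset for transcript length and GC content the direction turned (0.14, adjusted p = 0.272). The sign for Il6st thus depended on the correction.

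By a measure of likeness, the root mean square difference of log2 CPM centred over the 6 hearts, the 5 tested genes nearest to Il6st were Pon2, Tlk1, Ap3b1, Hnrnpul1 and Wbp1l. Their differences ran from 0.0205 for Pon2 to 0.0327 for Wbp1l, and none of the 5 passed the test between genotypes. They were picked for likeness to Il6st over the same 6 hearts, so that outcome follows from the choice and is no separate result.

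Il11ra1 (chromosome 4, 41760443 to 41769473) encodes the alpha chain that binds IL-11. It stood at 68.9, 66.5 and 68.98 CPM in STAT3cKO replicates 3, 6 and 91, against 41.4, 51.4 and 41.4 CPM in wild type replicates 1, 3 and 4. The 3 STAT3cKO hearts were close to each other and lay above every wild-type heart. The mean was 68.1 ± 1.43 CPM in STAT3cKO and 44.7 ± 5.74 CPM in wild type (SD, n = 3 each), which is 1.52-fold higher on the fitted scale (edgeR adjusted p = 0.00141). The call held in all 6 fits that left out 1 heart (log2 fold changes of 0.55 to 0.71) and after the offset for length and GC content (0.49, adjusted p = 0.00436).

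Part of the Il11ra1 count could belong to near-identical copies. Of the 1960 distinct 50-base words in its longest coding transcript, 46.5% also occur in transcripts of Gm13305, and many of these in Il11ra2 as well. The table gave Gm13305 0 counts in every heart and Il11ra2 1 to 3 counts in STAT3cKO and 0 to 3 in wild type. The gene also overlaps the end of Ccl27a, a chemokine gene with 57 to 63 counts in STAT3cKO and 32 to 60 in wild type. No source used here says how reads with several matching places were counted, so the Il11ra1 value may include reads of its copies.

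Il6ra (chromosome 3, 89869324 to 89913196) encodes the chain that binds IL-6 itself and is known for expression on liver cells and on myeloid and lymphoid cells. It stood at 2.05, 3.12 and 3.67 CPM in STAT3cKO replicates 3, 6 and 91, against 5.77, 6.98 and 5.43 CPM in wild type replicates 1, 3 and 4. The groups did not overlap, and the raw counts behind these values were 30, 48 and 67 reads in STAT3cKO and 112, 117 and 99 in wild type. The mean was 2.94 ± 0.824 CPM in STAT3cKO and 6.06 ± 0.815 CPM in wild type (SD, n = 3 each), a fitted fold of 0.490 (edgeR adjusted p = 0.00812). The gene passed in all 6 fits that left out 1 heart, with log2 fold changes of -1.22 to -0.83. With the length and GC offset the log2 fold change was -0.65 and the call was lost (edgeR adjusted p = 0.0756).

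Most macrophage markers on the list were lower in the same hearts as Il6ra. Of 8 markers, 6 fell and 0 rose. Those that fell include the scavenger receptor Cd163 (log2 fold change -1.68) and the growth factor receptor Csf1r (-1.09). With the length and GC offset Cd163 was at -1.53 and Csf1r at -0.92, and both still passed (edgeR adjusted p = 8.5e-05 and 0.000638). Cd68 (-0.13) and C1qa (-0.20), named after their values were seen, did not pass. They have the shortest transcripts of the list (1230 and 1040 nt). The 8 markers summed to 130 to 199 CPM in STAT3cKO hearts and 256 to 302 CPM in wild-type hearts, and none was at 0. The lymphocyte list summed to 3.83 to 6.57 CPM in STAT3cKO and 2.25 to 5.01 CPM in wild type, and 0 of its 2 tested genes passed. In bulk RNA, fewer cells of a type and less RNA per cell cannot be told apart, and the part of macrophages in the Il6ra difference was not tested.

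Lifr (chromosome 15, 7090610 to 7197489) encodes the gp130-like chain that serves LIF, cardiotrophin-1 and ciliary neurotrophic factor. It stood at 44.6, 52.3 and 47.7 CPM in STAT3cKO replicates 3, 6 and 91, against 61.1, 62.0 and 56.3 CPM in wild type replicates 1, 3 and 4. The groups did not overlap, although the highest STAT3cKO heart and the lowest wild-type heart were close. The mean was 48.2 ± 3.84 CPM in STAT3cKO and 59.8 ± 3.05 CPM in wild type (SD, n = 3 each), with an edgeR adjusted p of 0.0274. Leaving out any of 4 single hearts ended the call: edgeR gave an adjusted p of 0.110 without STAT3cKO replicate 3, and of more than 0.05 without STAT3cKO replicate 91 (0.0730), wild type replicate 1 (0.0757) or wild type replicate 3 (0.0943). The length and GC offset turned the direction and ended the call (log2 fold change 0.06, adjusted p = 0.708).

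Most endothelial markers fell beside Lifr in the main comparison, 6 of 8 with 0 called higher. The list summed to 802 to 876 CPM in STAT3cKO and 1158 to 1342 CPM in wild type. Emcn and Egfl7, named after their values were seen, did not pass and had log2 fold changes above 0 (0.16 and 0.23). Their transcripts are the shortest of the list (2588 and 1391 nt). Cdh5, the endothelial cadherin, had a log2 fold change of -1.09, and Kdr, also on the list, of -0.77. With the length and GC offset, under which Lifr turned to 0.06, Cdh5 was at -0.96 and Kdr at -0.50. Both still passed (edgeR adjusted p = 0.000152 and 0.0093). Markers of mural cells, the smooth muscle cells and pericytes of vessels, fell in 5 of 8 cases and summed to 687 to 812 CPM in STAT3cKO and 1084 to 1257 CPM in wild type. Of these, Acta2 and Notch3 had log2 fold changes of -2.14 and -0.46 with the offset, and both still passed. No marker of either list was at 0 in any heart. Their part in the Lifr difference was not tested.

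Osmr (chromosome 15, 6813568 to 6874968) encodes the chain through which oncostatin M signals together with gp130. It stood at 23.8, 23.8 and 25.7 CPM in STAT3cKO replicates 3, 6 and 91, against 29.3, 26.8 and 25.2 CPM in wild type replicates 1, 3 and 4. The groups overlapped, and the log2 fold change of -0.15 ± 0.10 (SE) did not pass (edgeR adjusted p = 0.318) and turned to 0.07 with the length and GC offset. Fibroblast markers went both ways: 1 of 8 rose and 2 fell, and the list summed to 1792 to 2357 CPM in STAT3cKO and 1387 to 2060 CPM in wild type. Their part in the Osmr values was not tested.

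Cntfr (chromosome 4, 41657498 to 41697091) encodes a receptor chain anchored to the membrane by a lipid, which binds ciliary neurotrophic factor. It stood at 3.68, 3.51 and 1.97 CPM in STAT3cKO replicates 3, 6 and 91, against 3.19, 4.06 and 2.36 CPM in wild type replicates 1, 3 and 4. The groups overlapped throughout. Its difference, a log2 value of -0.08 ± 0.30 (SE), gave an adjusted p of 0.872 in edgeR and has an error wide enough to leave changes of either sign undetected.

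Of the 6 tested members, 4 had groups that did not overlap, 3 of them lower in every STAT3cKO heart. Groups did not overlap for 43% of all genes tested. The median log2 fold change was -0.18 over the 6 tested members and 0.00 over all genes tested.

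**Figure D2:**
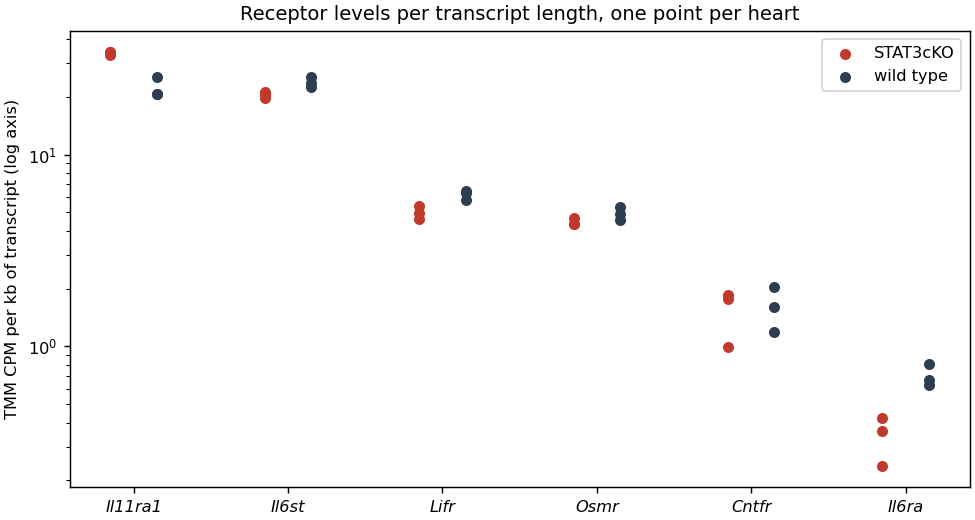
TMM-scaled CPM per kb of transcript on a log axis for the 6 receptor genes, with 1 point per heart and STAT3cKO to the left of wild type. Il11ra1 stands above Il6st in STAT3cKO hearts, both overlap in wild-type hearts, and Il6ra is the lowest in both groups.

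Set per kb of the longest coding transcript, which allows levels of different genes to be compared, the order of the receptors differed at the top. In STAT3cKO hearts Il11ra1 stood at 33.9 ± 0.712 CPM per kb and Il6st at 20.6 ± 0.750 (SD, n = 3), without overlap. In wild-type hearts Il6st stood at 23.8 ± 1.44 CPM per kb and Il11ra1 at 22.3 ± 2.86 (SD, n = 3), which overlapped. Il11ra1 ranked above 88.2% and Il6st above 85.1% of the 13580 tested genes with a known length. A shorter or longer transcript in use would move these levels, and copies of Il11ra1 may add to its value.

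Lifr and Osmr came next. In STAT3cKO hearts Lifr stood at 4.99 ± 0.398 CPM per kb and Osmr at 4.45 ± 0.201 (SD, n = 3), with overlapping hearts. In wild-type hearts Lifr stood at 6.19 ± 0.316 and Osmr at 4.93 ± 0.377 CPM per kb (SD, n = 3), without overlap. Cntfr followed at 1.53 ± 0.472 CPM per kb in STAT3cKO and 1.61 ± 0.426 in wild type. Il6ra was last, at 0.341 ± 0.0954 CPM per kb in STAT3cKO and 0.701 ± 0.0943 in wild type, and only 9.17% of tested genes ranked below it.

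Ratios within a heart do not depend on library size scaling, but they do depend on any correction for transcript length. The level of Il11ra1 per kb was 166%, 156% and 174% of that of Il6st in STAT3cKO replicates 3, 6 and 91, against 87.5%, 101% and 91.6% in wild type replicates 1, 3 and 4. The level of Il6ra per kb was 1.14%, 1.70% and 2.15% of that of Il6st in the STAT3cKO hearts, against 2.83%, 3.18% and 2.79% in the wild-type hearts. Neither ratio overlapped between the groups. These ratios carry no length and GC offset, under which the log2 fold changes of Il11ra1 and Il6st were 0.49 and 0.14, closer together than the 0.61 and -0.21 without it. The ratios of Lifr, Osmr and Cntfr to Il6st did overlap, with Lifr at 22.3% to 25.5% in STAT3cKO and 25.3% to 26.8% in wild type.

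**Figure D3:**
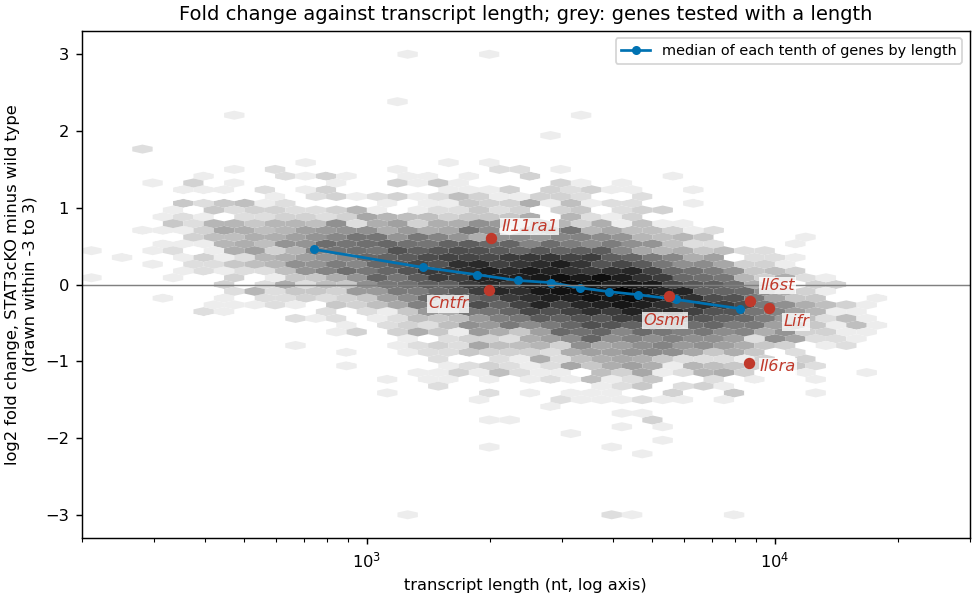
Log2 fold change, drawn within -3 to 3, against transcript length on a log axis for tested genes with a length (grey cells, darker where more genes fall), with the medians of successive length classes of equal gene number in blue and the 6 tested members in red. Il6st, Lifr and Osmr lie near the blue line, Il6ra lies below it and Il11ra1 above it.

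Transcript length moved with the fold changes of all genes, and several members are long. The coding transcripts used for Lifr, Il6st and Il6ra measured 9655, 8678 and 8639 nt, which places them among the longest 10% of genes (6675 nt or more). Among those genes 40% were lower and 2.94% higher in STAT3cKO hearts, and the median log2 fold change was -0.31. The values of Lifr and Il6st (-0.31 and -0.21) were close to or above that median, and the value of Il6ra (-1.03) was below it. Il11ra1 measured 2009 nt. Among the 594 tested genes of 1900 to 2100 nt, 16% were higher and the median log2 fold change was 0.10, against 0.61 for Il11ra1.

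**Figure D4:**
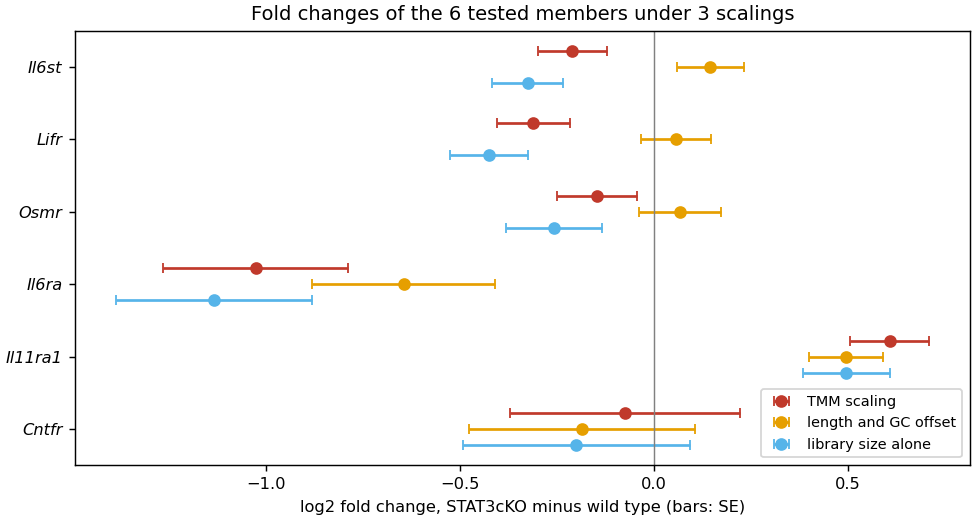
Log2 fold changes (STAT3cKO minus wild type, bars for SE) of the 6 tested members under TMM scaling, with the length and GC offset, and with library size as the only scaling. Il11ra1 stays above 0 and Il6ra below 0 in all of them, while Il6st, Lifr and Osmr turn from below to above 0 with the offset.

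Under the length and GC offset 10.4% of all genes were higher and 7.47% lower. Il11ra1 was the member still called, while Il6ra, Lifr, Il6st, Osmr and Cntfr did not pass there.

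The ligands were near the limit of detection. Lif (chromosome 11, 4257568 to 4272514), leukemia inhibitory factor, had 4, 7 and 8 reads in STAT3cKO replicates 3, 6 and 91, against 9, 17 and 5 in wild type replicates 1, 3 and 4. The ranges overlapped, and without the low-count filter its log2 fold change was -0.58 (edgeR adjusted p = 0.584). Il6 (chromosome 5, 30013114 to 30019975) had 3, 0 and 0 reads in STAT3cKO and 1, 1 and 0 in wild type. A count of 0 allows up to 3 reads, which is 0.164 to 0.205 CPM in the STAT3cKO libraries and 0.154 to 0.179 CPM in the wild-type libraries, for counting error only. No difference in Il6 was detectable at this depth.

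Clcf1 (chromosome 19, 4214238 to 4223505), a ligand of the ciliary neurotrophic factor receptor, had 0, 0 and 1 reads in STAT3cKO and 0, 0 and 1 in wild type. Its locus is shared: the table also lists Clcf1-pold4, which RefSeq places at 4214425 to 4233632 across both Clcf1 and the DNA polymerase subunit gene Pold4 (4231893 to 4233634). Clcf1-pold4 had 0 counts in every heart and Pold4 had 0 to 1 in STAT3cKO and 0 in wild type. Reads that fall on overlapping genes may have been set aside in counting, so the low Clcf1 count is no measure of its expression.

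Other ligands and receptors of the family, from a list of 14, were mostly below the filter, with 6 tested. Lepr, the leptin receptor, a relative of gp130 that also activates STAT3, stood at 1.30, 3.77 and 1.09 CPM in STAT3cKO replicates 3, 6 and 91, against 4.79, 6.80 and 4.99 CPM in wild type replicates 1, 3 and 4. STAT3cKO replicate 6 was the nearest to the wild-type hearts. Its fitted difference was -1.44 ± 0.41 on the log2 scale (SE), with an edgeR adjusted p of 0.0292. It passed in 1 of the 6 fits that left out 1 heart, the one without STAT3cKO replicate 6 (log2 fold change -2.21, edgeR adjusted p = 0.000344), and adjusted p was as high as 0.0950 in the others. The offset gave -1.24 (adjusted p = 0.0568).

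**Figure D5:**
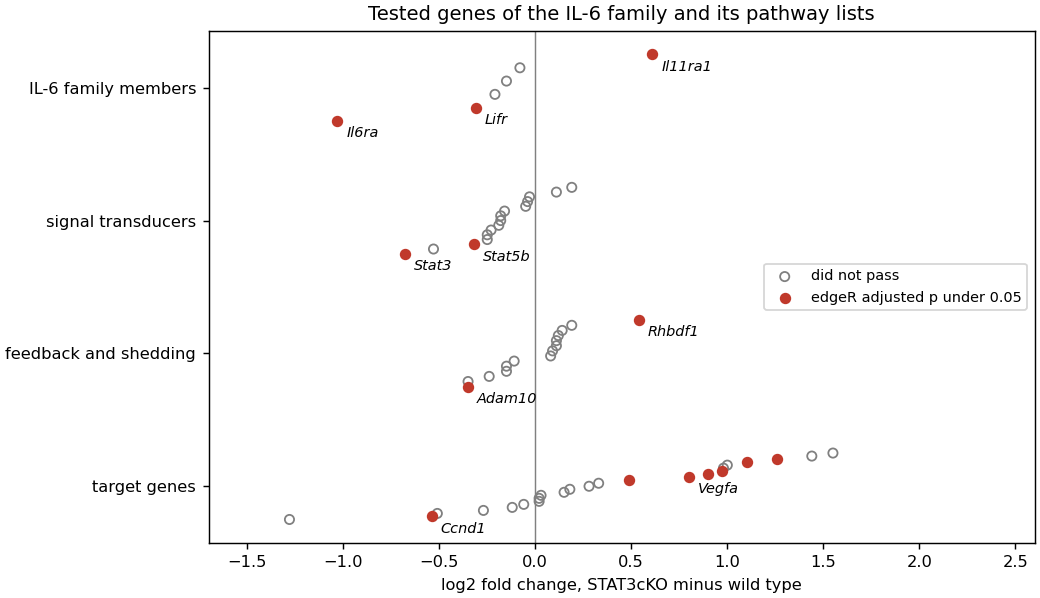
Log2 fold changes (STAT3cKO minus wild type) of the tested members and of the tested genes in the lists of signal transducers, feedback and shedding proteins, and target genes, filled where the edgeR adjusted p was under 0.05. Il6ra at -1.03 lies lowest among the called genes drawn, and 13 of the 15 signal transducers lie below 0, with 2 called.

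Among 15 signal transducers, the kinases, STAT proteins and adaptors below gp130, 0 rose and 2 fell, and the median log2 fold change was -0.18. Over all genes tested 12.6% were called lower and the median was 0.00. The median transcript length of the list was 4985 nt, and in the longest 10% of genes the median log2 fold change was -0.31. The part of length in the lean of this list was not tested. Beside Stat3, the gene that fell was Stat5b, a STAT protein of growth hormone and cytokine signalling, at 50.9 ± 5.33 CPM in STAT3cKO and 63.5 ± 0.600 CPM in wild type (SD, n = 3 each; edgeR adjusted p = 0.0265). Its log2 fold change was -0.32, and it passed in 1 of the 6 fits that left out 1 heart, the one without STAT3cKO replicate 6 (edgeR adjusted p = 0.00942, against up to 0.112 in the others). The offset gave -0.09 (adjusted p = 0.504).

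Among 14 feedback inhibitors and shedding proteins 1 rose and 1 fell. Adam10, a membrane protease that can release the IL-6 receptor from the cell surface, stood at 48.5 ± 0.277 CPM in STAT3cKO and 61.9 ± 2.42 CPM in wild type (SD, n = 3 each; log2 fold change -0.35, edgeR adjusted p = 0.00947). After the offset it no longer passed (-0.22, edgeR adjusted p = 0.10). Rhbdf1, a cofactor that carries the related sheddase ADAM17 to the surface, stood at 38.9 ± 0.845 CPM in STAT3cKO and 26.8 ± 2.86 CPM in wild type (SD, n = 3 each; log2 fold change 0.54, edgeR adjusted p = 0.00317), also with the offset (0.53, adjusted p = 0.00279).

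Of 24 genes known as targets of STAT3 or of this family, 23 were tested, 6 rose and 1 fell, with a median log2 fold change of 0.28. Vegfa, an endothelial growth factor, stood at 459 ± 41.7 CPM in STAT3cKO and 264 ± 20.4 CPM in wild type (SD, n = 3 each), and its log2 fold change was 0.80. The metallothioneins Mt1 (log2 fold change 0.90) and Mt2 (0.97), which bind metal ions, rose, and the cyclin Ccnd1 fell (-0.54). With the length and GC offset the values were 0.89 for Vegfa, 0.64 for Mt1, 0.45 for Mt2 and -0.43 for Ccnd1, and each still passed. Junb, Cebpb and Cebpd, named after their values were seen, were also higher, but they failed in 3, 3 and 5 of the 6 fits that left out 1 heart. Junb and Cebpb were not called with the offset either. Over all 67 listed pathway genes outside the members, 58 were tested, 8 were higher and 5 lower. Over all genes tested, 13.2% were called higher and 12.6% lower.

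The members include neighbours on the chromosome. Osmr and Lifr lie 215642 bases apart on chromosome 15. Within 200000 bases of the pair, 4 other genes were tested, of which Fyb, Rictor and Egflam, chosen by position after the results were known, were lower, with log2 fold changes of -0.71, -0.49 and -0.83. Il11ra1 and Cntfr lie 63352 bases apart on chromosome 4. Around them Nudt2, Rpp25l, Dctn3 and Galt, chosen in the same way, were higher, with log2 fold changes of 0.54, 0.47, 0.47 and 0.34, while Kif24, Fam219a, Dnaic1, Enho, Ccl27a and Cntfr did not pass.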

How the data were processed

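RNA from 3 STAT3cKO and 3 wild-type mouse hearts was extracted with Trizol and sequenced from Illumina libraries, per the labels' protocols. The authors deposited a single table of unnormalized counts, with 1 row for each gene. Per the submitters' processing notes, reads were aligned with HISAT2 to GRCm38. Which program counted reads, with which annotation, strand setting and rule for reads with several matches, is not given in the sources used here.

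Counts were fitted with edgeR 4.0.16 in R 4.3.3 (TMM scaling, filterByExpr with a minimum count of 10, robust quasi-likelihood F test, Benjamini-Hochberg over 14484 genes), with genotype as the only term and all 6 hearts. The SE of a log2 fold change is its size divided by the square root of F. Calls were made at an adjusted p of 0.05. Length is that of the longest protein-coding GENCODE transcript of a symbol. Alternatives were DESeq2 1.42.0 (size factors, and its Wald test), limma 3.58.1 (voom), upper-quartile scaling, library size alone, no filter, a stricter filter, no robust estimation, a length and GC offset, and leaving out each heart. The test was also run on counts simulated from its own fitted means and spread, with 200 genes changed. Those counts held no added trend with length or GC content, so the run cannot check for such an effect. Its outcome is not reported here.

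Named genes were the 9 members, Stat3, up to 4 called genes of each pathway list, up to 2 called genes of each marker list (cardiomyocyte, fibroblast, endothelial, mural, macrophage, neutrophil, lymphocyte, Schwann and mesothelial), and the 5 genes nearest to Il6st. The members and lists were chosen with earlier results of these data known. Library totals of 15416877 to 18264052 counts set the precision, and limits from a count of 0 cover counting error only. Some genes that the rule or the position names are not reported here, though counts over lists include them.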

Additional observations from a re-analysis of the deposited data

How the results depend on the processing

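The number of members called higher was 1 (Il11ra1) under all 15 alternatives. The number called lower was 2 in the main fit and also with the DESeq2 Wald test and limma-voom, 0 with the length and GC offset, 3 with library size alone (Il6st added) and 1 to 2 with 1 heart left out. Of the other pathway genes, 5 were lower in the main fit, 10 with library size alone, 3 with the offset and 3 to 6 with 1 heart left out. Those higher numbered 8, and 6 to 10 with 1 heart left out. The offset turned the log2 fold changes of Il6st (0.14), Osmr (0.07) and Lifr (0.06). Cntfr ranged from -0.25 to 0.18 with 1 heart left out, at 0.18 without STAT3cKO replicate 91 and 0.12 without wild type replicate 3; the cause was not tested. Library size alone shifted the median of all genes to -0.11, with 1109 genes higher and 2714 lower, against 1918 and 1820 in the main fit. The offset gave 1505 and 1082, and leaving out wild type replicate 4 gave 1237 and 1198. No paired analysis was made, because no source used here records a pairing between STAT3cKO and wild-type hearts. Low counts kept the 3 ligands out of the test.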
